A study of Mus musculus with 65 samples.

Results

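The genes described are 9 transcription factors that mark neuromesodermal progenitors (NMPs) or the presomitic mesoderm these can form: T, Cdx1, Cdx2, Cdx4, Nkx1-2, Tbx6, Msgn1, Sp5 and Sp8. They were chosen by name, as 9 of the 25239 genes of a table of normalised reads, and followed from day 3 to day 6 in every group. The cells were mouse embryonic stem cells of the HM1 line, differentiated first with bFGF and LGK, an inhibitor of Wnt secretion, and then for 20 h with bFGF, the Wnt pathway activator CHIR99021 and the inhibitors SB-431542 and DMH1. Day 3 cells from the end of that step, at 0 nM SAG, are the NMP group (3 libraries). All later cells received retinoic acid and 0, 10, 100 or 500 nM of the smoothened agonist SAG, and were fixed, stained for intracellular markers and flow sorted as SOX2-positive p3, pMN, p2 or p0-1 progenitors, the ventral to intermediate domains of the neural tube. p3 and pMN came from 100 and 500 nM SAG, p2 from 10 and 100 nM and p0-1 from 0 and 10 nM, which gave 16 libraries on day 4, 24 on day 5 and 22 on day 6, in groups of 1 to 3 independent differentiations. One cell line was used, no gene was altered, and the gate behind the NMP libraries is not given in the sources used here. Day, sort and the replacement of bFGF, CHIR99021, SB-431542 and DMH1 by retinoic acid all change together between day 3 and day 4. Their shares in any difference between NMP and later libraries cannot be told apart. SAG changes with them except in p0-1 at 0 nM. In the 2 day 4 libraries of that group, T, Cdx1, Cdx2, Cdx4 and Sp5 had no read.

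The libraries held 7615114 to 13484815 reads on genes. Day 3 libraries had a read on 14070 to 15963 genes and later ones on 9718 to 14433. The lowest of these numbers belongs to p3 at 100 nM on day 4, replicate 3, which has the highest total of all and stands apart: without it the genes called between p3 and p0-1 on day 4 fall from 840 to 14, so tests of p3 on day 4 are given with and without it. The NMP label was set beside marker genes, which do not settle it. T, itself a member and so no separate check, was present in all 3 NMP libraries. Sox2 lay between 95.6 and 577.5 normalised reads, and the neural marker Sox1 was at 0. The pluripotency factor Pou5f1 lay at 345.2 to 1374, and the summed level of 6 pluripotency markers at 868.3 to 1643, against 0 to 165.1 in later libraries. A list of 6 definitive endoderm markers summed to 6061 to 10902 in the NMP libraries, nearly all of it Epcam, while Sox17, Cer1 and Gsc were at 0. These values accompany every contrast with NMP, and their part in it was not tested.

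NMPs are bipotent cells of the caudal epiblast and tail bud that feed both the spinal cord and the paraxial mesoderm, and they are kept by Wnt and FGF signals. They co-express T (Brachyury, the founding T-box factor) with Sox2, and carry the caudal homeobox genes Cdx1, Cdx2 and Cdx4, which open posterior Hox genes, and Nkx1-2, a homeobox gene of the preneural tube. Sp5 and Sp8 are zinc finger factors that work with the Wnt effectors TCF and LEF, and Sp8 is also used later, in the neural tube and forebrain. Tbx6 and Msgn1 drive the presomitic mesoderm fate, while retinoic acid favours the neural one.

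The genes lie, in mm10, at chr17:8434423-8442496 (T, plus strand), chr5:147300900-147307249 (Cdx2, minus), chrX:103321398-103330224 (Cdx4, plus), chr7:132596239-132599637 (Nkx1-2, minus), chr7:126781483-126785548 (Tbx6, plus), chr12:11208382-11208948 (Msgn1, minus, 1 exon), chr2:70474923-70477726 (Sp5, plus) and chr12:118846329-118852578 (Sp8, plus). The 250 bases before the annotated start were read for 8 of the 9 genes from RefSeq sequence of GRCm38.p6. Those of 4 genes are shown here because they set side by side Wnt-linked genes that were abundant in NMPs (T and Sp5), a Wnt-linked gene without a read in any library (Msgn1) and the one member that stayed high in neural progenitors (Sp8). Each runs 5′ to 3′ on the strand of its gene, and capitals mark the letters CTTTGA or CTTTGT, the core bound by TCF and LEF, on either strand, so that a match on the opposite strand reads TCAAAG or ACAAAG. The windows are chr17:8434173-8434422 (T), chr2:70474673-70474922 (Sp5), chr12:11208949-11209198 (Msgn1) and chr12:118846079-118846328 (Sp8).
T: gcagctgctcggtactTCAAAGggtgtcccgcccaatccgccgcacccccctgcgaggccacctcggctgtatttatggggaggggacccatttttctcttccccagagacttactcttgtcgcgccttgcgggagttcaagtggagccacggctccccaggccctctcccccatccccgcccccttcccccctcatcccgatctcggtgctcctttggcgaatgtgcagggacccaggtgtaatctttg
Sp5: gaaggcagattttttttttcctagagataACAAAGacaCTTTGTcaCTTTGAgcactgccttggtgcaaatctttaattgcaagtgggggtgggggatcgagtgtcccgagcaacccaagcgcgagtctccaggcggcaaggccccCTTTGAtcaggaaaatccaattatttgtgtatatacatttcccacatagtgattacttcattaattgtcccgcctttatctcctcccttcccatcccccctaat
Msgn1: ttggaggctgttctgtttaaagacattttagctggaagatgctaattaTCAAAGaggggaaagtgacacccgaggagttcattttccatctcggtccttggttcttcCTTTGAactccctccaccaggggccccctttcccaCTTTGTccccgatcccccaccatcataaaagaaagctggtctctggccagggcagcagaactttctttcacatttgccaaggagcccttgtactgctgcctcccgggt
Sp8: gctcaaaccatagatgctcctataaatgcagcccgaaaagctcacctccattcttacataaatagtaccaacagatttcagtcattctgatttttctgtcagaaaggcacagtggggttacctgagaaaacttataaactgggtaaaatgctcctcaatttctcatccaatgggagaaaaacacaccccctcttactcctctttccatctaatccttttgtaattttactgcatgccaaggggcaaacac

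The Sp5 window holds 4 TCF/LEF matches, of which 3 lie within bases -221 to -199 before the start. Of 32851 promoters of the same length, 27.6% hold at least 1 match, 0.776% at least 3 and 0.0944% at least 4. Msgn1 holds 3 and T holds 1, whereas Cdx2, Cdx4, Nkx1-2, Tbx6 and Sp8 hold none in this window. The T-box motif AGGTGT occurs once in T and once in Cdx4 (11.8% of promoters), the CDX site TTTATNG once each in T, Tbx6 and Sp8 (9.81%), and the GC box GGGCGG, which SP factors bind, 2 times each in T and Nkx1-2 (32.7%), all searched on both strands. The letters therefore do not sort the members by level: Msgn1, with 3 matches, had no read, and Nkx1-2, without one, was among the highest.

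In NMP cells, 7 of the 9 members had at least 41 reads in every library, the exceptions being Tbx6 and Msgn1. Levels are normalised reads unless a length is named. T had 909.4, 3749 and 2562 normalised reads in replicates 1, 2 and 3, a mean of 2407 ± 1426 (SD, n = 3). Nkx1-2 had 872.2, 1448 and 1563 (1294 ± 370.1), and Sp5 had 954.9, 1022 and 1064 (1014 ± 55.03). Relative to its mean, Sp5 varied least among the members with a read, although the SDs of Cdx4 and Tbx6, given next, were lower in normalised reads, while T was lowest in replicate 1 and highest in replicate 2.
Cdx1 had 839.1, 425.3 and 759.6 (674.7 ± 219.6), Cdx2 had 251.3, 451.2 and 55.71 (252.7 ± 197.7), and Cdx4 had 188.5, 129.4 and 164.4 (160.8 ± 29.72). The 3 caudal genes did not move together across replicates: Cdx1 was lowest in replicate 2, where Cdx2 was highest. Sp8 had 378.6, 1059 and 2464 (1300 ± 1063), the widest spread of the members in absolute terms after T. Of the mesoderm factors, Tbx6 had 48.78, 19.13 and 4.077 (23.99 ± 22.74), and Msgn1 had no read. Per kilobase of exon, the order of the NMP levels was T (1176), Nkx1-2 (680.2), Sp5 (483.3), Cdx1 (385.5), Sp8 (290.3), Cdx2 (117.8), Cdx4 (100.8), Tbx6 (13.99) and Msgn1 (0). Neighbours in this order differed by more than the larger of their SDs only between Nkx1-2 and Sp5, between Cdx4 and Tbx6 and between Tbx6 and Msgn1.

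**Figure D1:**
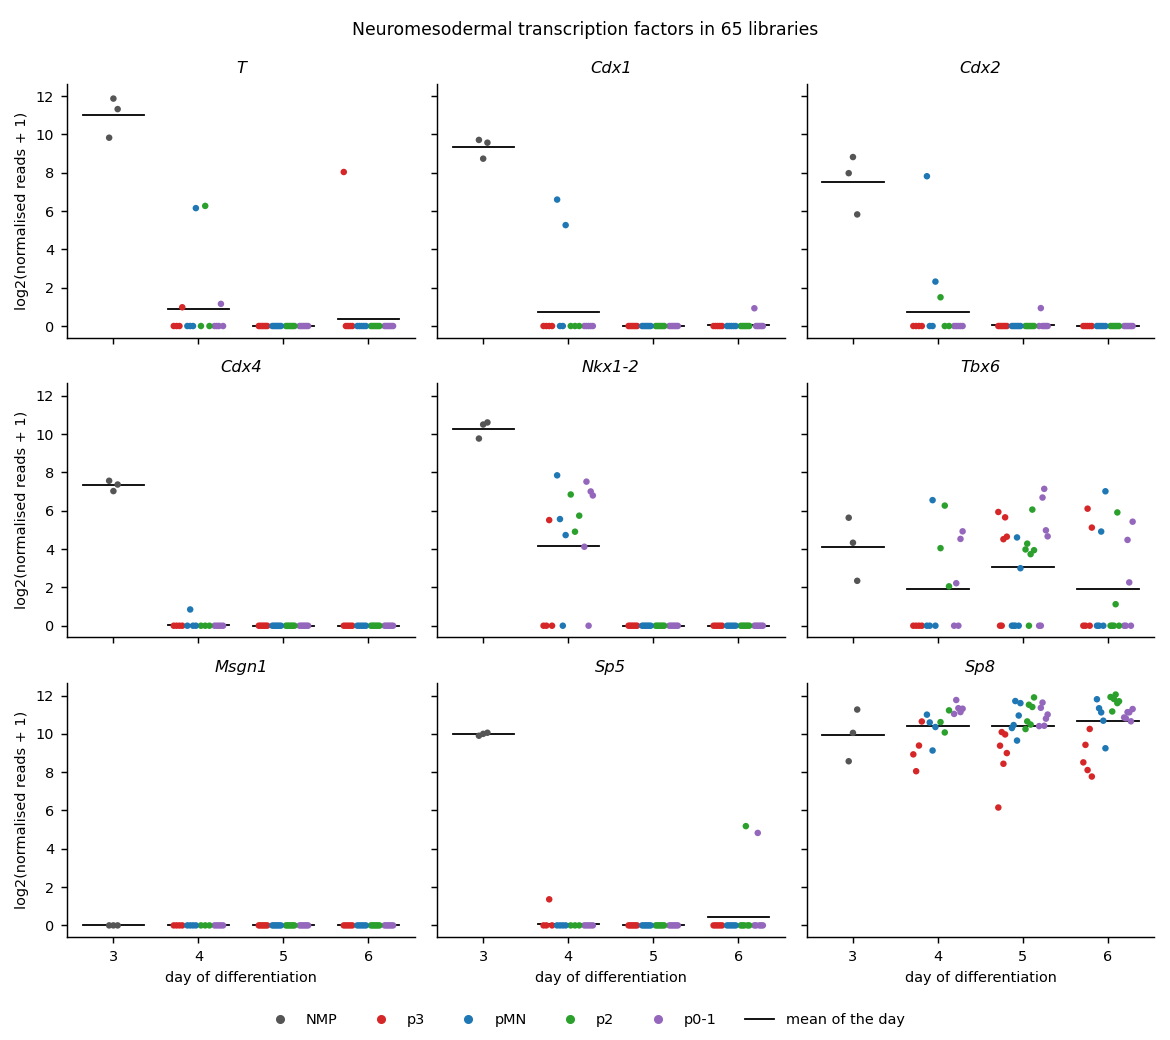
Normalised reads of the 9 members in each of the 65 libraries by day, on a log2(value + 1) axis, with 1 panel per gene, points for libraries coloured by cell type and a line for the mean of the log2 values of the day. T, the Cdx genes, Nkx1-2 and Sp5 drop from day 3 to 0 in nearly all libraries of days 5 and 6, Sp8 stays high, Tbx6 stays low and Msgn1 is at 0 throughout.

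By day 4, after the switch to retinoic acid, most of these transcripts were gone. T was at 0 in 12 of 16 day 4 libraries and above 3 reads in 2 of them, and its day 4 mean of 9.289 was 259-fold below that of NMP (498-fold without its highest library, p2 at 100 nM, replicate 3). It had no read in the 24 libraries of day 5, which is at least 860-fold lower when 3 reads per library are taken as the floor, and was found on day 6 in 1 library of 22. This floor, used for every such fold below, covers counting error only. The paper describes the RNA of these fixed cells as low in quality and limited in amount. The NMP and day 4 libraries did not overlap for T.
Cdx1 was present in 2 of 16 libraries on day 4 (mean 8.347, 80.8-fold lower, or 270-fold without pMN at 100 nM, replicate 2), in none of 24 on day 5 (at least 241-fold lower) and as 1 read on day 6. Cdx2 was above 3 reads in 2 of 16 libraries on day 4 (mean 14.42, 17.5-fold lower), had 1 read in all of day 5 and none on day 6 (at least 85.6-fold lower). The day 4 mean of Cdx2 rested on 1 library, pMN at 100 nM, replicate 2, without which the other 15 averaged 0.388, 651-fold below NMP. Its highest day 4 value, 224.9, lay above the lowest NMP value of 55.71, so that for Cdx2 the days overlapped. Cdx4 left 1 read among the 16 libraries of day 4 and none later, which on day 5 is at least 57.4-fold lower.
Sp5 fell as completely: 2 reads on day 4 in all, none on day 5 (at least 362-fold lower), and 27 and 30 reads in 2 of 22 libraries on day 6 (356-fold lower on average, or 777-fold without the higher of these). Nkx1-2 kept reads in more of the day 4 libraries than T, Sp5 or any Cdx gene. It was still read in 11 of 16 day 4 libraries, with a lowest value of 0, a median of 36.86 and a highest of 229.7 (mean 61.21 ± 71.37, 21.1-fold below NMP). It then had no read in any of the 46 libraries of days 5 and 6, at least 462-fold and 438-fold below NMP. In bulk libraries of sorted cells, fewer cells carrying a transcript and less of it per cell cannot be told apart.

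These changes were tested in limma on log2(value + 1), with 13964 genes, means of 25 groups and p-values adjusted by Benjamini-Hochberg. A gene was called when its adjusted p was under 0.01 and its change exceeded 2-fold. A mean of 10 normalised reads was needed to enter, which Cdx4 (7.43) and Msgn1 (0) missed, so that 7 of the 9 members were tested. T, Cdx1, Cdx2 and Sp5 entered only through their NMP values, so their calls, here and to day 6, add nothing to the levels above. From NMP to day 4 the log2 change was -10.14 for T (SE 0.97, adjusted p = 1.6e-11), -9.93 for Sp5 (SE 0.70, 4.9e-16), -8.60 for Cdx1 (SE 0.71, 1.4e-13), -6.81 for Cdx2 (SE 0.72, 3.9e-10) and -6.17 for Nkx1-2 (SE 0.94, 3.6e-06). These 5 fell, in a contrast in which 2.18% of genes tested were called lower and the median of all genes was -0.40. Tbx6 (-2.26, SE 1.59, adjusted p = 0.51) and Sp8 (0.42, SE 0.53, adjusted p = 0.75) were not called. For Cdx4, an exact two-sided permutation test over the 3 NMP and 16 day 4 libraries gave a difference of 7.27 on the log2(value + 1) scale and p = 0.00206, the smallest value the 969 arrangements allow. The test takes libraries as independent, although cell types of day 4 may come from the same dish, so its p does not allow for shared dishes. On reads recovered from the table, edgeR's quasi-likelihood test also called T, Cdx1 and Sp5, but not Cdx2 (adjusted p = 0.0126) or Nkx1-2 (0.039), and DESeq2 called none of the 5, with T at an adjusted p of 0.0572, but called Tbx6 lower (log2 change -8.50, adjusted p = 0.0090). A fit with 1 mean per cell type and day kept all 5 calls in limma and those of T, Cdx1, Cdx2 and Sp5 in edgeR.

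Between day 4 and day 5, Nkx1-2 was the only member called (log2 change -4.12, SE 0.50, adjusted p = 2.6e-08), where 1.2% of genes were called lower. The edgeR fit of 25 groups, in which every day 5 group is at 0, did not call it (log2 change -7.67, adjusted p = 1). DESeq2 on the same 25 groups did not call it either. Fits with 1 mean per cell type and day did (edgeR adjusted p = 1.3e-05). Between day 5 and day 6, limma called 0 of 7 members, with 0 at an unadjusted p below 0.05, and edgeR and DESeq2 on the same 25 groups also called 0, where 0.852% of genes were called. Over the whole course from NMP to day 6 the log2 changes were -10.67 for T, -10.29 for Nkx1-2, -9.57 for Sp5, -9.30 for Cdx1 and -7.54 for Cdx2, all called, beside 4.69% of genes called lower. DESeq2 kept only the call of T (adjusted p = 0.0051), with Nkx1-2 at 0.25, Cdx1 at 0.30, Sp5 at 0.35 and Cdx2 at 0.38. Tbx6 (-2.09, adjusted p = 0.47) and Sp8 (0.59, adjusted p = 0.55) were not.

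The mesoderm factors were scarce throughout. Tbx6, which commits NMP progeny to paraxial mesoderm and represses Sox2, had a read in 3 of 3 NMP libraries, 7 of 16 on day 4, 15 of 24 on day 5 and 9 of 22 on day 6, with means of 23.99, 15.19, 25.39 and 17.60. Its highest value in any library was 140.4, in p0-1 at 10 nM on day 5. In many groups Tbx6 was read in some replicates and at 0 in others, as in p0-1 at 0 nM on day 5, where 1 of 3 libraries held 102.3 and the others 0, and the ranges of all days overlapped. Msgn1, the bHLH factor downstream of T and Tbx6, had no read in any of 65 libraries, where 3 reads per library are the upper limit that a count of 0 allows by counting error alone.

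Nkx1-2 on day 4 was the one case in which an NMP factor on its way out could be compared between cell types. In p3 it was 0 at 100 nM (replicate 3) and 0, 44.7 and 0 at 500 nM. In pMN it was 229.7 and 46.38 at 100 nM and 0 and 25.55 at 500 nM. In p2 it was 114.3 and 29.02 at 100 nM and 52.58 at 10 nM, and in p0-1 it was 16.42 and 182.6 at 0 nM and 0, 127.8 and 110.3 at 10 nM. Thus 3 of 4 p3 libraries had no read, all 3 p2 libraries had some, and the p3 library with reads lay inside the range of each other type.
In limma Nkx1-2 was lower in p3 than in p2 (log2 difference -4.89, SE 1.24, adjusted p = 0.0069) and than in p0-1 (-4.29, SE 1.09, adjusted p = 0.0049), where 4.25% and 5.76% of genes were called lower, and not called against pMN (-3.62, adjusted p = 0.035; 4.49% called lower). Without the p3 library that stands apart, 5, 14 and 6 genes were called in all against p2, p0-1 and pMN. Neither call of Nkx1-2 held there (-3.97 with adjusted p = 0.56, and -3.37 with adjusted p = 0.31), and against pMN it was at -2.70 with 0.65. With all libraries, both calls were also lost with edgeR (adjusted p = 0.36 and 0.26), DESeq2 (0.84 and 0.72) and a pseudocount of 10 (0.043 and 0.014). Set against the other 12 day 4 libraries together, the 4 of p3 gave a difference of -3.71 log2 with an exact permutation p = 0.0495 (two-sided), and the 3 that remain without that library gave -3.25 with p = 0.123. This pooled comparison was not among the planned pairs of cell types. It takes libraries as independent, although cell types of 1 SAG concentration may come from the same dish, so its p does not allow for shared dishes. The interaction of cell type and day was not called (adjusted p = 0.27, and 1 without that library).

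**Figure D2:**
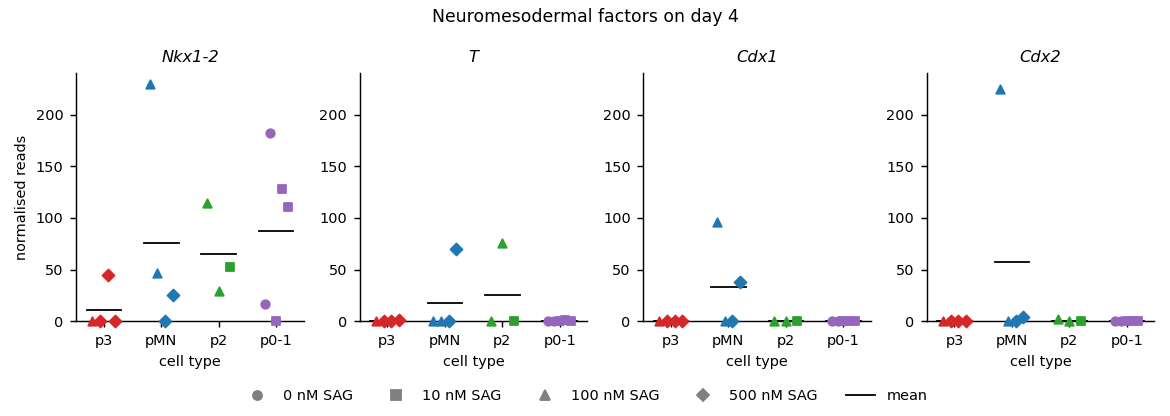
Normalised reads of T, Cdx1, Cdx2 and Nkx1-2 in each day 4 library, on a linear axis by cell type, with symbols for the SAG concentration and a line for the mean of the cell type. Nkx1-2 is at 0 in 3 of 4 p3 libraries and present in all 3 p2 libraries, and T, Cdx1 and Cdx2 are confined to a few libraries.

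The remaining day 4 reads of T and the Cdx genes sat in a few libraries. pMN at 100 nM, replicate 2, held 224.9 of Cdx2, 96.03 of Cdx1 and the highest Nkx1-2 of the day, 229.7, with no T. pMN at 500 nM, replicate 3, held 70.25 of T, 37.52 of Cdx1, 3.992 of Cdx2 and 25.55 of Nkx1-2, and p2 at 100 nM, replicate 3, held 76.17 each of T and Tbx6. Members were thus left in different combinations, with Cdx genes and no T in one pMN library and T with little Cdx2 in the other. The summed pluripotency markers in those pMN libraries were 8.003 and 69.45, within the 3.998 to 165.1 of the other pMN libraries, while the summed fibroblast markers of the first were 778.6 against 208.4 to 284.7 in the other 3, and the 6 notochord markers of the second summed to 601.9 against 4.001 to 570.1. Only 2 of the 6 fibroblast markers had a read in the first, and 3 of the 6 notochord markers in the second. In p2 at 100 nM, replicate 3, the notochord markers summed to 414.4 against 225.9 to 248.2 in the other 2 p2 libraries, the endoderm markers to 731.7 against 424.9 to 489.3 and the paraxial mesoderm markers to 562.2 against 254.5 to 525.9. There, 2 of 6, 3 of 6 and 5 of 7 of these markers had a read. Whether such cells were present, and their part in these results, was not tested. No T-box, Cdx or SP member was called between cell types on day 4 by limma, the nearest being Sp8 between p3 and p0-1, described below, and Cdx1 between p3 and pMN (-2.97 log2, adjusted p = 0.018, and 0.22 without the p3 library that stands apart). Between pMN and p2, pMN and p0-1, and p2 and p0-1, limma called 0 of 7 members, with 2, 2 and 0 at an unadjusted p below 0.05, and edgeR and DESeq2 called 0, where 0.00716%, 0.1% and 0.0286% of genes were called.
On day 6, T was found in a single library, p3 at 100 nM, replicate 1, at 262.2, while the other 4 p3 libraries were at 0. T also marks the notochord. The 6 notochord markers summed to 1376 there and to 916.3 to 4991 in the other 4 p3 libraries of day 6, and Noto was at 0 in all 11 p3 libraries of days 5 and 6. Its fibroblast markers summed to 348.2 against 81.6 to 196.1, but only 1 of the 6, Col3a1, had a read there. The 7 paraxial mesoderm markers, 3 of them with a read, summed to 3635 against 1106 to 2212, but this sum is nearly all Dll3 (3626), which neural progenitors of these days also carried. Whether such cells were present, and their part in the result, was not tested. The Sp5 reads of day 6 were 27.38 in p0-1 at 0 nM, replicate 3, and 35.29 in p2 at 10 nM, replicate 1, each alone in its group.

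Sp8 behaved unlike the rest. It was read in all 65 libraries, with means of 1300 ± 1063 (n = 3) on day 3, 1654 ± 901 (n = 16) on day 4, 1735 ± 1030 (n = 24) on day 5 and 2095 ± 1209 (n = 22) on day 6. No change between days was called, and the NMP values lay inside the later range. Sp8 levels differed between cell types. p3 and p0-1 shared no SAG concentration, nor did pMN and p0-1. Within each of these pairs, on any day and for Sp8 or any other member, cell type and SAG cannot be told apart. The contrasts of p2 with p3, pMN or p0-1 averaged SAG concentrations that were shared only in part. At 100 nM, which p3, pMN and p2 shared, the Sp8 means were 608.4, 2006 and 1917 on day 5. On day 6 they were 441.5, 2794 and 3261. Over days 5 and 6, Sp8 ran from 70.16 to 1219 in p3 (median 509.4, mean 585.6 ± 381.4, n = 11), from 606.5 to 3577 in pMN (median 1985, mean 2049 ± 1015, n = 11), from 1215 to 4240 in p2 (median 3021, mean 2847 ± 1017, n = 12) and from 1353 to 3170 in p0-1 (median 1954, mean 2048 ± 538.4, n = 12). All p3 libraries lay below all p0-1 libraries, p3 and p2 touched at 1219 against 1215, and p3 and pMN overlapped.
Sp8 was lower in p3 than in p2 by 2.53 log2 (a log2 difference of -2.53, SE 0.35, adjusted p = 1.6e-06), than in p0-1 (-2.11, SE 0.35, adjusted p = 4.2e-05) and than in pMN (-1.89, SE 0.36, adjusted p = 0.00092), and it was the only member called in each of these contrasts, where 0.551%, 0.537% and 0.315% of genes were called lower. edgeR called the same differences (-2.24, -1.80 and -1.69). Without p3 at 500 nM on day 6, replicate 3, which had the value 217.3, the difference from pMN was -1.58 with an adjusted p of 0.018. Among the other cell types limma called 0 of 7 members, with 0 at an unadjusted p below 0.05, where 0.107%, 0.96% and 0.322% of genes were called, and edgeR called 0 and DESeq2 1, between pMN and p0-1. For Sp8 these differences were small (pMN against p2 -0.64, adjusted p = 0.53, pMN against p0-1 -0.22, adjusted p = 0.89, and p2 against p0-1 0.42, adjusted p = 0.81).

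On day 4 the mean of Sp8 was again lowest in p3 (754 ± 587, n = 4, and 843.9 without the library that stands apart), followed by pMN (1365 ± 620), p2 (1677 ± 666) and p0-1 (2591 ± 535). The difference between p3 and p0-1 was -2.19 log2 (SE 0.61, adjusted p = 0.0117) and lay near the threshold on either side of it: limma missed it, as did edgeR (adjusted p = 0.032), a pseudocount of 10 (0.013) and no filter (0.021), while DESeq2 (0.0011), a mean of at least 100 (0.0090), the replicate block (0.0058) and array weights (0.0023) passed it. Leaving out 1 library passed it in 7 of 65 fits, and without the p3 library that stands apart the difference was -1.97 (adjusted p = 0.26). The interaction of cell type and day was not called for Sp8 (adjusted p = 0.92, and 1 without that library) or for any other of the 7 members tested in limma, with 2 at an unadjusted p below 0.05 (Cdx1 and Nkx1-2) and 0 called by edgeR, where 2.6% of genes were called (3 genes without the p3 library that stands apart). Ranked over all 25 groups, the 6 p3 groups had the lowest Sp8 means, from 441.5 at 100 nM on day 6 to 843.9 at 500 nM on day 4, while the highest was p2 at 10 nM on day 6 (3558 ± 599.8). Neighbours in that ranking differed by less than the larger of their SDs, except p2 at 100 nM on day 4 (1319) and p0-1 at 10 nM on day 5 (1733), and NMP ranked 9 of 25 from the lowest.

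**Figure D3:**
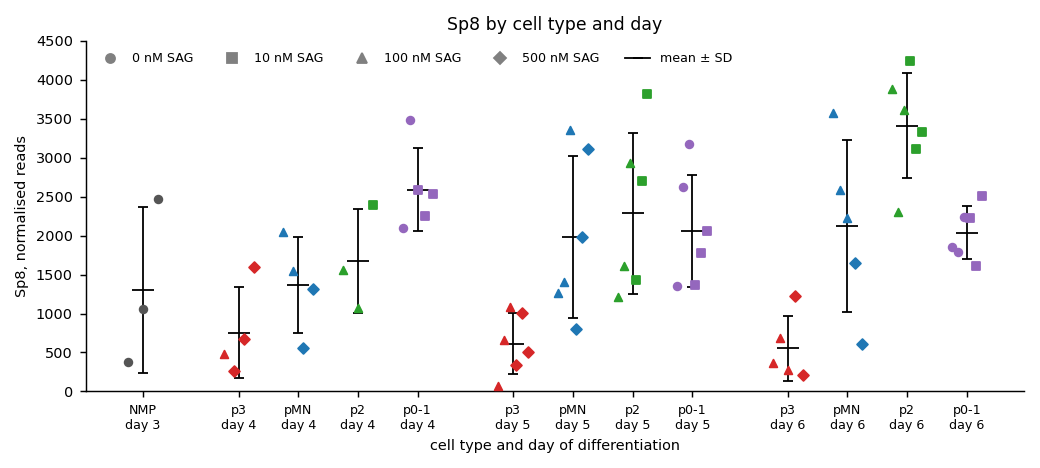
Normalised reads of Sp8 in each library by cell type, day and SAG concentration, on a linear axis with points for libraries, symbols for the SAG concentration, and the mean ± SD of each cell type and day. The mean of p3 is the lowest of the 4 cell types on each of days 4 to 6, and NMP lies in between with a wide spread.

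SAG concentration within a cell type moved no member past the threshold. limma called 0 of 7 members between 10 and 0 nM in p0-1, between 100 and 10 nM in p2, between 500 and 100 nM in pMN and between 500 and 100 nM in p3, with 0 at an unadjusted p below 0.05 in each, beside 0.0215%, 0%, 0.00716% and 5.53% of genes called. The last share was 772 genes, and 0 were called without the p3 library that stands apart. edgeR called 0 members in each, and DESeq2 called 1 in pMN and 0 in the others. The lowest adjusted p was that of Sp8 in p3 (log2 difference 0.45 between 500 and 100 nM, SE 0.46, adjusted p = 0.63), a contrast that holds the library that stands apart. In pMN, Sp8 was at -0.87 (SE 0.43) and Tbx6 at 2.56 (SE 1.32), both at an adjusted p of 0.96 in limma. The Sp8 group means in pMN, at 500 against 100 nM, were 934 against 1796 on day 4, 1965 against 2006 on day 5 and 1126 against 2794 on day 6, with 2 or 3 libraries each.

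Genes of the same programme were read beside the members. Of 12 caudal signals, the FGF and WNT ligands and related factors of the tail bud, 10 were tested. From NMP to day 4, 5 fell and none rose (list median -5.09, against -0.40 over all genes tested, of which 2.18% were called lower). Of these 5, 3 (Fgf8, Fgf17 and Wnt3a) entered the test only through their NMP values and had to be lower later, as did both Wnt targets and both streak factors called below and Hes7, so that the counts of these 4 lists describe levels and support nothing. The log2 changes of Wnt3a (-8.10) and Fgf8 (-7.62) were the lowest, while Cyp26a1 (1.29, adjusted p = 0.81), which degrades retinoic acid, and Bmp7 (-0.37, adjusted p = 0.92) were not called. Of 9 Wnt target genes, 2 fell and none rose, Notum, a secreted Wnt deacylase (-9.50), and the antagonist Dkk1 (-5.33; list median -3.11). Znrf3 (-1.19, adjusted p = 0.079) and Tcf7 (-2.20, adjusted p = 0.42) were not called. By day 6, 6 of 10 caudal signals and 4 of 9 Wnt targets were lower than in NMP, where 4.69% of genes tested were called lower.
Of 10 streak and caudal epiblast factors, 7 were tested and 2 fell to day 4, with none rising (list median -0.92). These were the homeobox gene Evx1 (-8.74), which had no read after day 3, and Pou5f1 (-7.55). Gsc (0.88, adjusted p = 0.82) and Lin28a (0.43, adjusted p = 0.64) were not called. From NMP to day 6, 4 of the 7 were called lower.
Of 14 paraxial mesoderm genes, 10 were tested and 3 fell, none rising (list median 0.25), which were the oscillating repressor Hes7 (-5.99), the Notch ligand Dll3 (-4.29) and the Wnt potentiator Rspo3 (-6.69). Lists whose count of lower genes changed by over 1.5 times with other tools were the paraxial genes (1 with edgeR, 1 with DESeq2), the caudal signals (2 with DESeq2), the Wnt targets (1 with DESeq2) and the streak factors (1 with DESeq2). Lfng (2.11, adjusted p = 0.21) and Meox1 (1.79, adjusted p = 0.63), a somite gene, were not called. Dll3, singled out here after its values were seen, returned: it rose from day 4 to day 5 (3.1% of genes called higher) and again to day 6, and it was not lower on day 6 than in NMP (log2 change -0.10, adjusted p = 0.94). Over this list, 3 of 10 genes were called lower and 1 higher from NMP to day 6.

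The neural progenitor factors moved the other way. Of 10 tested, 8 rose from NMP to day 4 and none fell (list median 4.15, where 1.32% of genes were called higher): Sox1 rose by 9.62 log2 and the POU factor Pou3f2 rose by 8.19, whereas Sox3 rose by 2.03 and Zic1 (1.02, adjusted p = 0.77) was not called. Sox2, which NMPs share with neural progenitors and which was picked out after its values were seen, rose by 2.44 (adjusted p = 8.3e-08). By day 6, 9 of 10 were higher than in NMP, where 2.85% of genes were called higher.
Over days 5 and 6, where Sp8 was low in p3, 2 of these 10 genes were lower in p3 than in pMN, 3 than in p2 and 4 than in p0-1, and none was higher (list medians -0.47, -1.28 and -1.10, against -0.09, 0 and -0.07 over all genes tested). Of all genes tested, 0.315%, 0.551% and 0.537% were called lower in these contrasts. Pax6 was lowest in each contrast (-3.39, -4.86 and -4.64 log2), but PAX6 protein was one of the markers that told the sorted cell types apart, so that its difference is no finding between them. It was followed by Hes5 against pMN (-1.31), Pou3f2 against p2 (-1.76) and Irx3 against p0-1 (-1.83).
Of 23 paralogs of the members, 7 were tested and limma called 0 from NMP to day 4, with 1 at an unadjusted p below 0.05 and 0 called by edgeR or DESeq2. Of all genes tested, 2.18% were called lower and 1.32% higher, and the list median was -0.24 against -0.40. The largest changes among the 7 were in Sp9 (-1.22, adjusted p = 0.72) and Sp4 (-1.09, adjusted p = 0.59), and Sp3 (-0.06) and Mesp2 (0.23) moved least in the lower and upper direction. At those shares, 0 calls among 7 genes sets them in no contrast to Sp5, which entered the test only through its NMP values.

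**Figure D4:**
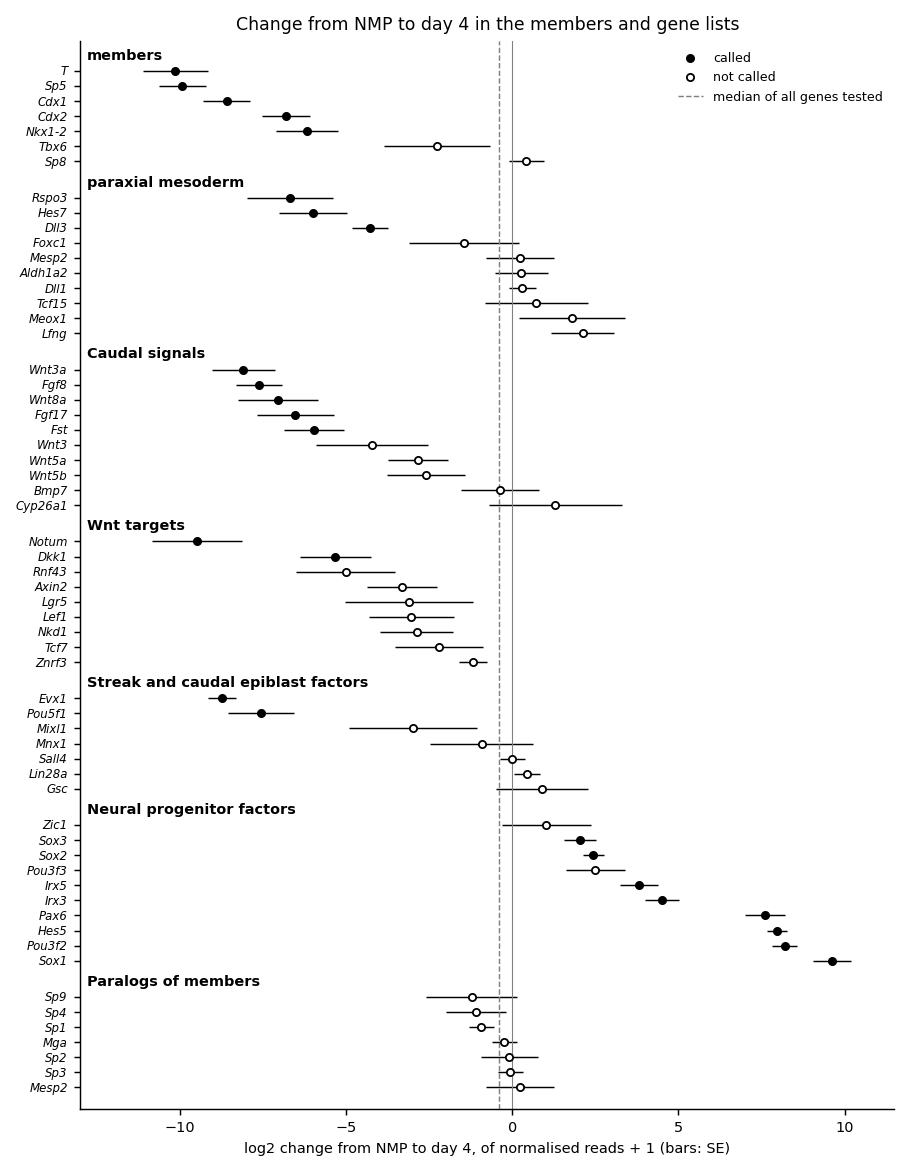
log2 change from NMP to day 4 of each tested gene of the 6 lists and of the tested members, with points for genes, filled where called, bars for the SE and a dashed line for the median of all genes tested. Caudal signals and Wnt targets lie mostly below 0, neural progenitor factors above 0 and paralogs near it, and the dashed line lies at -0.40.

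The genes whose 25 log2 group means were most like those of each member are given as a description: the groups share libraries between genes, and for the members lost after day 3 the single NMP group sets most of the correlation. They were, for T, Alox15 (Pearson r 0.912) and Evx1 (0.908); for Cdx1, Kremen2 (0.957) and Clca4a (0.938), which also led for Cdx2 (0.934 each); and for Sp5, Evx1, its antisense gene Evx1os and Btla (0.973 each). Evx1 and Evx1os had the same r, and the sources used here do not state that counting used strand. For Nkx1-2 they were Kcnj3 (0.934), Wnt8a (0.925) and Car12 (0.905), which were likewise still read on day 4, with means of 79.7, 108 and 89.9. Tbx6 had no close match (Fbxl17, 0.694).
For Sp8 over the 25 groups, Rbm3 (0.854), Ints2 (0.842) and Xpo1 (0.826) came first. Over the 16 groups of days 5 and 6 the most like gene was Pax6 (0.925), the paired homeobox factor of intermediate and dorsal progenitors and a marker of the sort, followed by Rbm3 (0.915) and Smurf2 (0.896). Pax6 had 222.6 ± 214.9 normalised reads in p3 (n = 11), 1525 ± 567.7 in pMN (n = 11), 3885 ± 1119 in p2 (n = 12) and 3379 ± 1326 in p0-1 (n = 12). Like Sp8, Pax6 was lowest in p3 and highest in p2, with a wider range. It was chosen for its likeness to Sp8 over these same groups, so the shared order is no separate finding.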

How the data were processed

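RNA from fixed, flow-sorted cells was made into SMART-Seq HT and Nextera XT libraries by the authors. The authors aligned reads to mm10 with ERCC sequences with STAR in the nf-core rnaseq pipeline, counted them over genes with featureCounts, leaving out marked duplicates, removed libraries that failed quality control and deposited signal values, which are gene counts divided by a size factor of each library. These were called normalised reads. Dividing by the value of 1 read (0.7172 to 1.3589) returned whole reads for 100.0% of 834400 values above 0 (tolerance 0.01). All 65 libraries were used, and groups came from the labels.

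The test was limma 3.58.1 (trend) in R 4.3.3 on log2(value + 1), with genes of mean at least 10 (13964), 25 group means and 40 residual degrees of freedom; log2 changes are on that scale, understate low genes, and depend on the pseudocount where a group is at 0. Calls needed an adjusted p below 0.01 and over 2-fold. Alternatives were edgeR 4.0.16 (quasi-likelihood, TMM) and DESeq2 1.42.0 on the recovered reads, a pseudocount of 10, no filter, a mean of at least 100, a replicate block, array weights, leaving out each library, and fits with 1 mean per cell type and day or per day. From NMP to day 4, edgeR called 410 genes on the recovered reads, against 488 in limma. Steps were tested on simulated data. The members and gene lists were chosen with earlier results of these data known. Beside the members, up to 4 genes per list were named, those with the highest and the lowest log2 changes from NMP to day 4. Genes marked as most like a member had the highest Pearson correlation of group means among genes tested that are no members. Libraries of a group are separate differentiations of 1 line, so p-values do not cover other lines. Intervals and floors cover counting error only. Promoter sequences were taken from RefSeq on GRCm38.p6.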

Additional observations from a re-analysis of the deposited data

Results flagged for a closer look

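Of the sets of 4 to 10 libraries of 1 cell type and day, 30 had more than 3 reads of a member in some library, and in 11 of these the highest library stood apart from the nearest other one by Dixon's test at the 95% level. Chance alone flags about 1 in 20 sets of normally distributed values, a share that does not carry over here: in 6 of the 11 all other libraries were at 0, where a single library with reads stands apart by construction. T stood apart in pMN on day 4 at 70.25 (500 nM, replicate 3, the other libraries at 0) and in p3 on day 6 at 262.2 (100 nM, replicate 1). Cdx2 did in pMN on day 4 at 224.9 (100 nM, replicate 2) and Nkx1-2 in p3 on day 4 at 44.7 (500 nM, replicate 2). Sp5 did on day 6 in p2 at 35.29 (10 nM, replicate 1) and in p0-1 at 27.38 (0 nM, replicate 3).

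Tbx6 accounted for the other 5, all in pMN or p2: 92.99 in pMN on day 4, 23.39 in pMN and 65.77 in p2 on day 5, and 128.6 in pMN and 59.23 in p2 on day 6. Each of the pMN values came from 500 nM and each of the p2 values from 10 nM.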

How the results depend on the processing

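Fits with 1 mean per cell type and day or per day and the folds without a member's highest library were added after seeing the data, and the causes of the shifts below were not tested. The 5 members called from NMP to day 4 became 3 with edgeR, 1 with DESeq2 (Tbx6), 1 with a mean of at least 100 (T, the others being under that mean), 3 with 1 mean per day in edgeR and 0 in DESeq2, and stayed 5 when any library was left out. For day 4 to day 5 the 1 call became 0 with edgeR or a mean of at least 100, 4 and 2 with 1 mean per day in edgeR and DESeq2, and 1 to 3 when leaving out libraries (3 without pMN at 100 nM, replicate 3). In DESeq2 on the 25 groups the 1 member called from day 4 to day 5 was not Nkx1-2. For day 5 to day 6 the 0 calls became 2 and 1 with 1 mean per day in edgeR and DESeq2. The 5 from NMP to day 6 became 1 with DESeq2, 1 with a mean of at least 100 and 2 with 1 mean per day in DESeq2. With no filter, Cdx4 was called too (-7.27 to day 4, -7.32 to day 6).

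Against pMN on day 4, the 0 members called in p3 became 1 with DESeq2, 1 with no filter and 0 to 2 when leaving out libraries. The 1 against p2 became 0 with edgeR, a pseudocount of 10, a mean of at least 100 or 1 mean per cell type and day in limma or edgeR, and 0 to 1 when leaving out libraries. The 1 against p0-1 became 0 with edgeR, a pseudocount of 10 or 1 mean per cell type and day in either tool, 2 with DESeq2 or array weights, and 0 to 2 when leaving out libraries. Nkx1-2 was not among the members that DESeq2 called against p2 or p0-1. Leaving out libraries gave 0 to 2 for pMN against p2 and against p0-1 on day 4, 0 to 1 for p3 against pMN over days 5 and 6, 0 to 1 for SAG in pMN and 0 to 2 for the interaction. DESeq2 called 2 members for p3 against p2 and 1 for pMN against p0-1 over days 5 and 6, and 1 for SAG in pMN. One direction reversed: Sp8 from NMP to day 4 was -0.28 without NMP replicate 1, with -0.28 to 1.07 over all libraries left out, the 1.07 being without NMP replicate 3.

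Same-numbered libraries correlated at a median r of 0.0162 (-0.0955 to 0.122; 5 of 634 pairs over 0.1) and different-numbered ones at -0.00793 (none over 0.1), and within a day and SAG concentration at 0.0315 against -0.0226. Same-numbered libraries were thus slightly more alike, but did not reach, in every pair, the 0.1 that was asked for pairing, and the labels do not say what a number shares. For its accessibility assay the paper sorted several cell types out of 1 dish, and its RNA samples were collected likewise. Libraries of different cell types may therefore share a differentiation, whereas the main contrasts between cell types and between days take all libraries as independent. With the replicate block, p3 against p0-1 on day 4 gave 2 members instead of 1, and no other member count changed. Over all genes, NMP to day 4 gave 488 calls, against 1067 with DESeq2, 1346 with no filter, 292 with a mean of at least 100, 1656 with array weights, 256 with 1 mean per day in edgeR and 270 without NMP replicate 2; day 4 to day 5 gave 601, against 2321 with DESeq2 and 263 to 390 with 1 mean per cell type and day or per day, and 339 without p3 at 100 nM on day 4, replicate 3; day 5 to day 6 gave 119, against 899 with DESeq2 and 78 with a mean of at least 100; NMP to day 6 gave 1053, against 1992, 638, 2443 and 668 with no filter, a mean of at least 100, array weights and 1 mean per day in edgeR, and 568 without NMP replicate 2. DESeq2 called 335, 402, 523 and 2914 genes for SAG in p0-1, p2, pMN and p3, against 3, 0, 1 and 772.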
